A study of Mus musculus with 3 samples.

Results

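Preneutrophils are the dividing precursors of the neutrophil lineage that sit between the granulocyte progenitor and the non-dividing immature neutrophil. The meningeal preneutrophils described here were chosen by their own counts. Among cells with at least 500 UMIs (unique molecular identifiers, each standing for a captured mRNA molecule), 174 to 4548 genes and a mitochondrial share under 8.3%, those were taken that held at least 3 UMIs of *Fcnb*, in which *Fcnb* made up at least 0.04% of UMIs, and in which *Camp* and *Ngp* together made up at least 2%. They numbered 215 of 7057 cells.

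The cells came from the meninges of male C57BL/6J mice aged 10 to 12 weeks. The tissue was picked off the brain and, as needed, off skull pieces, which the authors avoided leaving in the dish. Cells were sorted as live nucleated (DAPI-negative, DRAQ5-positive) events. Mice either stayed in their home cage (HC) or went through 14 days of chronic social defeat (CSD), in which a mouse meets an aggressive resident, and the CSD mice sequenced were ones judged stress-susceptible in behavioural tests. There were 3 libraries, HC replicates 1 and 2 and CSD replicate 1, and 4 mice were pooled for each. With 1 CSD pool, the effect of stress and the make-up of that pool cannot be told apart.

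HC replicate 1 held 70 preneutrophils, HC replicate 2 held 27 and CSD replicate 1 held 118, out of 2599, 1702 and 2756 cells. Their summed UMIs were 688817, 236727 and 1150684, and the median preneutrophil carried 9915, 8416 and 9355 UMIs. The medians were 3360 UMIs in immature neutrophils and 1390 in mature neutrophils, and the limit of 3 *Fcnb* UMIs by itself favours deep cells: the 25 with exactly 3 had a median of 5960 UMIs and the 40 with 20 or more had 13238. HC replicate 2 stood apart by its free RNA: barcodes of at most 100 UMIs, which are empty droplets, held 24.1% of its UMIs, against 7.87% in HC replicate 1 and 5.48% in CSD replicate 1. It also gave the fewest preneutrophils, 1 of them with only 514 UMIs. Of all cells, 17 barcodes occurred in more than 1 library and 1 preneutrophil carried such a barcode. Among the preneutrophils, 15 (6.98%) were in the top 5% of doublet scores of their library, and none was removed.

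Neutrophils make their granules in order. Azurophil (primary) granules, which hold myeloperoxidase and serine proteases such as neutrophil elastase, are filled first in early progenitors. Specific (secondary) granules, with lactoferrin and cathelicidin, follow as the cells approach their last divisions, and gelatinase (tertiary) granules with matrix metalloproteinases come after division has ended. The transcription factor C/EBPε, encoded by *Cebpe*, is needed for the specific granule stage. *Fcnb* encodes ficolin B, a lectin of innate immunity that binds sugars on microbes.

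The genes used to choose the cells are shown here with the sequence before their start sites, beside that of lactoferrin, because C/EBP factors bind such regions through motifs related to TTGCNNAA. *Fcnb* lies on chromosome 2 (GRCm38, 28076378 to 28084885, minus strand). *Camp*, *Ngp* and *Ltf* lie within 1195 kb of each other on chromosome 9. *Camp* encodes cathelicidin (109847379 to 109849617, minus strand), *Ngp* neutrophilic granule protein (110419747 to 110423012, plus strand) and *Ltf* lactoferrin (111019271 to 111042767, plus strand). The sequences are from RefSeq (GRCm38.p6), run 5′ to 3′ on the strand of the gene and end just before the first annotated start. Capitals mark TTGCNNAA or its reverse complement TTNNGCAA.
Fcnb, chr2:28084886-28085128, minus strand: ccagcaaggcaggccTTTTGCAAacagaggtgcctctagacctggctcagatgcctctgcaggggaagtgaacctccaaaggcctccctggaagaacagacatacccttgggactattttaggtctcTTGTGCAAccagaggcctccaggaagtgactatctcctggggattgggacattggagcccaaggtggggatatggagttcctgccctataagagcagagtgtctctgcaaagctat
Camp, chr9:109849618-109849706, minus strand: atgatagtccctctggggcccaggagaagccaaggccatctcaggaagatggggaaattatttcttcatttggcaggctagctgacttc
Ngp, chr9:110419558-110419746, plus strand: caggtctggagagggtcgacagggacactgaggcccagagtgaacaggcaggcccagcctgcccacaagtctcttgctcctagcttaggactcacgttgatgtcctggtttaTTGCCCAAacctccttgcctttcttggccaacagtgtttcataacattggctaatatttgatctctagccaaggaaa
Ltf, chr9:111019042-111019270, plus strand: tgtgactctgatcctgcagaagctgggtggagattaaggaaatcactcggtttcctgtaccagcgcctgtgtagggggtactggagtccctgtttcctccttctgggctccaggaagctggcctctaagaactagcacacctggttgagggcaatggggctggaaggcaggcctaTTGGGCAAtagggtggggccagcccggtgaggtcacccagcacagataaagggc
Of 32851 mouse promoters, taken from 250 bases before to 50 bases after the start, 3547 (10.8%) held the motif on either strand. *Fcnb* and *Ngp* held 2 matches each in that window, *Ltf*, *Lcn2* and *Mmp8* held 1 each, and *Camp*, *Chil3*, *Mki67* and *Elane* held 0. The window runs past the printed sequences, and 1 of the 2 *Ngp* matches lies in the part not printed. These matches describe letters only, and binding was not measured.

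The selected cells held *Fcnb*, *Camp* and *Ngp* because the rule required it. Levels below are CPM, the UMIs of a gene scaled to a common total over the summed cells of a class, given in the order HC replicate 1, HC replicate 2, CSD replicate 1. Reads were counted at the 3′ end, so these values do not grow with gene length. Since counts of these same cells chose them, comparisons with other classes are descriptions without a test. *Fcnb* was at 1569, 899.8 and 1153 CPM, against 93.4, 90.04 and 79.7 CPM in immature neutrophils, which are the 1172 cells that met the *Camp* and *Ngp* limit but not the *Fcnb* limits. In empty droplets it was at 83.5, 86.9 and 139 CPM, near immature neutrophils in the HC libraries and above them in CSD replicate 1. The low *Fcnb* level of immature neutrophils follows from the limits that define them. *Fcnb* counts per preneutrophil ran from 3 to 54 with a median of 8, and *Camp* and *Ngp* took 2.04% to 21.3% of UMIs with a median of 12.9%. Near the limits, 25 preneutrophils held exactly 3 *Fcnb* UMIs, 20 cells with 2 UMIs met the other limits, and a further 25 cells had 3 or more UMIs but fell short of 0.04%. The limit on *Camp* and *Ngp* kept 215 of the 236 cells that met both *Fcnb* limits. It kept 4 cells between 2% and 4% and left out 1 cell between 1% and 2%, and the other cells left out lay below 1%.

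The 3 other markers of the stage, which the rule did not use, were higher than in immature neutrophils. *Chil3*, which encodes a chitinase-like lectin of immature granulocytes, was at 7346, 8457 and 9571 CPM in preneutrophils and at 3740.4, 3947 and 4806 CPM in immature neutrophils. *Cebpe* was at 938, 912 and 1017 CPM, against 555, 559 and 554 CPM. *Mki67*, a protein of dividing nuclei, was at 123, 114 and 142 CPM, against 37.8, 30.0 and 44.5 CPM. For all 3 markers each library was higher in preneutrophils than any library in immature neutrophils, and mature neutrophils were lower still at 569 to 1113 CPM for *Chil3*, 122 to 132 CPM for *Cebpe* and 17.0 to 23.5 CPM for *Mki67*.

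The most abundant transcripts were those of calprotectin, the calcium-binding protein pair of the neutrophil cytosol. *S100a8* reached 139423, 130978 and 136388 CPM and *S100a9* 95751, 109451 and 110891 CPM. *Camp* followed at 61142, 68835 and 65201 CPM and *Ngp* at 51937, 57661 and 64778 CPM. *Lcn2*, which encodes the iron-siderophore-binding protein lipocalin 2, was at 9762, 12457 and 14678 CPM.

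Genes of very early progenitors were almost absent. *Kit*, the stem cell factor receptor, was at 5.81, 4.22 and 1.74 CPM and *Cd34* at 2.90, 8.45 and 0.869 CPM, each value resting on 1 to 4 UMIs. *Myc*, a growth-promoting transcription factor, had no UMI in any preneutrophil. *Gfi1*, a repressor needed for granulocyte fate, was low at 15.97, 8.45 and 5.21 CPM, whereas *Spi1*, encoding the myeloid factor PU.1, was at 425, 435 and 525 CPM. *Ly6g*, the surface antigen by which mouse neutrophils are gated, was already present at 269, 532 and 496 CPM, below the 758, 1067 and 1113 CPM of immature neutrophils.

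**Figure D1:**
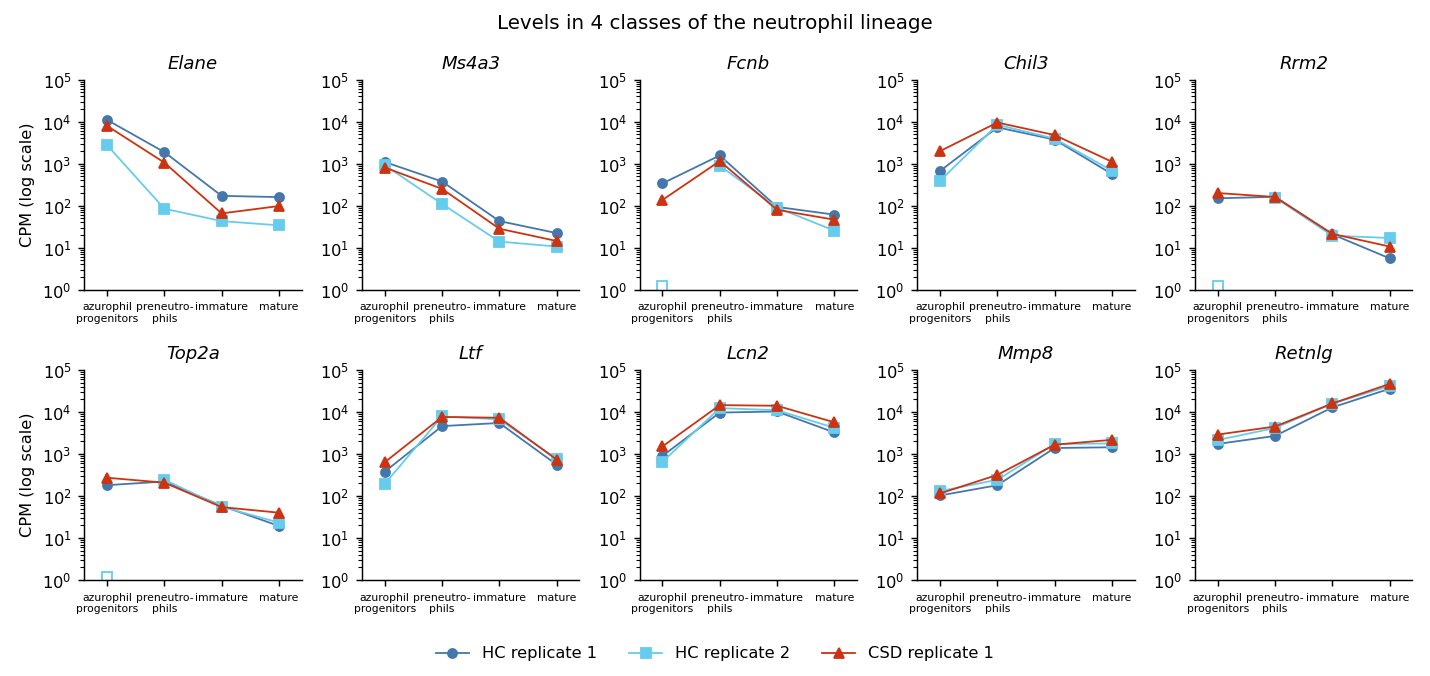
CPM on a log axis (vertical) of 10 genes in 4 classes of the neutrophil lineage (horizontal), with 1 symbol per library joined by lines that guide the eye; open squares at the floor of the axis are values of 0 in the 2 azurophil progenitors of HC replicate 2. Ms4a3 falls from left to right and Elane falls as far as immature neutrophils. Fcnb peaks in preneutrophils because the rule chose them by it. Chil3, which the rule did not use, also peaks there, and Mmp8 and Retnlg rise towards mature neutrophils.

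Among the genes compared with immature neutrophils, those of DNA replication and mitosis were frequent among the highest ratios. The 2 lowest ratios were those of gelatinase granule genes. A gene was compared where 1 of the classes reached 100 CPM in every library, and a gene could enter through the class in which it was high. The replication and mitosis genes whose ratios are given below, except *Hist1h2ap*, entered through preneutrophils alone. The filter thus favoured a high ratio for them. The comparison held 4 of 39 S phase genes, 13 of 47 G2 and M phase genes and 2 of 6 gelatinase granule genes. Of the 898 genes compared, 47 (5.23%) were over 2-fold higher in preneutrophils in every library and 24 (2.67%) were below 50% in every library. After *Fcnb*, with a ratio of 13.3, the highest mean ratio was that of *Ms4a3*, a membrane protein gene of granulocyte-monocyte progenitors, at 8.18 (7.42 to 8.62 over the libraries). It was at 376, 110 and 251 CPM in preneutrophils and at 43.0, 13.9 and 28.3 CPM in immature neutrophils.

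Replication genes came next. *Rrm2*, which encodes a subunit of ribonucleotide reductase, was at 163, 156 and 161 CPM against 20.8, 19.3 and 21.3 CPM, a ratio of 7.50. *Asf1b* and *Dnajc9*, both histone chaperones, had ratios of 7.07 and 4.25. *Tipin*, a protein of the replication fork, had a ratio of 5.46, and the histone genes *Hist1h2ap* and *Hist1h1b* had 5.14 and 4.90. The library spread was narrow for *Rrm2* but wide for *Hist1h2ap*, at 2702, 587 and 1621 CPM, with HC replicate 2 lowest in this and in the other cell classes. Mitotic genes followed: *Top2a*, the topoisomerase that untangles chromosomes, at a ratio of 3.94, *Cenpf* of the kinetochore at 3.53, *Cdca8* of the chromosomal passenger complex at 3.50 and *Ube2c*, a ubiquitin-conjugating enzyme of mitotic exit, at 3.48. *Spc24* of the kinetochore and *Smc2* of condensin had ratios of 3.55 and 3.54, and *2810417H13Rik* of 4.54. Summed over the whole list, whatever the level of its genes, the 39 S phase genes were at 2144, 1593 and 1699.9 CPM in preneutrophils. In immature neutrophils they were at 514, 533 and 452 CPM. Azurophil progenitors were higher, at 3250, 1969 and 3493 CPM, with 2 cells in HC replicate 2. Cells outside the neutrophil lineage were at 1169, 1501 and 1643 CPM, close to preneutrophils in HC replicate 2 and CSD replicate 1. Empty droplets were at 1120, 1084 and 1241 CPM. A high S phase sum was therefore not particular to preneutrophils. The 47 G2 and M phase genes were at 5707, 6366 and 6666 CPM, against 2851, 2471 and 2757 CPM in immature neutrophils.

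The lowest ratios were those of 2 matrix metalloproteinase genes of gelatinase granules. *Mmp8*, which encodes neutrophil collagenase, was at 181, 245 and 320 CPM against 1398, 1729 and 1677 CPM in immature neutrophils, a ratio of 0.152. Empty droplets held more, at 411, 537 and 708 CPM. *Mmp9*, encoding gelatinase B, had a ratio of 0.208. *Retnlg*, a resistin-like gene of mature neutrophils, was at 2709, 4195 and 4542 CPM against 12945, 15919 and 16069 CPM. Those *Retnlg* values lay below the 6490, 9362 and 10832 CPM of empty droplets. *Cxcr2*, the chemokine receptor of blood neutrophils, was at 18.9, 50.7 and 43.4 CPM against 119, 145 and 131 CPM, and also lay below empty droplets (46.3, 77.1 and 93.0 CPM). The rest of the 15 lowest ratios belonged to genes of varied function. They were *Slc7a11*, a cystine transporter, at 0.269, the cytokine gene *Osm* at 0.278, the receptor genes *Clec4e* at 0.318 and *Fpr2* at 0.379, *S100a6* at 0.349, *Timp2*, an inhibitor of metalloproteinases, at 0.353, and *Sh3glb1*, *Hacd4*, *Ceacam10*, *Slfn1* and *Prr13* at 0.321 to 0.373. Summed over whole lists, the 10 mature neutrophil genes were at 4929, 6987 and 7419.9 CPM against 17587, 21069 and 21359 CPM in immature neutrophils, and the 11 immediate early genes at 1325, 1462 and 1146 CPM against 2084, 2730.1 and 1759 CPM. Both sums were higher in empty droplets than in preneutrophils.

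Specific granule genes differed in both directions. Of 11 compared, 4 were higher in every library: *Camp* and *Ngp*, which the rule used, *Chil3* and *Cyba*, a subunit of the NADPH oxidase. *Cybb*, *Pglyrp1* and *Chil1* were lower in every library, and the median ratio was 1.02. *Lcn2* in immature neutrophils was at 10355, 11096 and 14186 CPM, close to preneutrophils library by library. *Ltf* was at 4643, 7921 and 7675 CPM in preneutrophils and at 5519, 6724 and 7351 CPM in immature neutrophils, so that HC replicate 1 was lower and the other libraries higher. Of 79 ribosomal protein genes, 53 were higher in preneutrophils in every library, and the median ratio was 1.33. Over all 898 genes, 377 were higher and 288 lower in every library, with a median of 1.07. Oxidative phosphorylation genes, which encode the respiratory chain, were higher in every library for 34 of 56 and lower for 6 (median ratio 1.14). Of 22 actin cytoskeleton genes 16 were lower and 3 higher (median 0.850). The 25 interferon-stimulated genes summed to 3007, 4013 and 4739 CPM against 5305, 5522 and 7895 CPM. In empty droplets this sum was higher than in preneutrophils, at 5160, 4895 and 6245 CPM. The 26 actin genes summed to 36978, 43235.5 and 40291 CPM in preneutrophils, and to 40059, 58848 and 46519 CPM in empty droplets.

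Azurophil granule genes varied widely between libraries. *Elane*, which encodes neutrophil elastase, was at 1881, 84.5 and 1057 CPM in preneutrophils, with HC replicate 2 far below the others and CSD between the HC libraries. In empty droplets *Elane* was at 428, 96.3 and 381 CPM, so its level in the preneutrophils of HC replicate 2 was no higher than in free RNA. *Prtn3*, which also lies on chromosome 10 and encodes proteinase 3, was at 528, 59.1 and 392 CPM, and *Mpo*, encoding myeloperoxidase, at 343, 21.1 and 122 CPM. The order of the libraries was the same for these 3 genes.

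Few cells carried most of these transcripts in HC replicate 1 and CSD replicate 1, but not in HC replicate 2. The 4 genes *Mpo*, *Elane*, *Prtn3* and *Ctsg* together took no UMI in 36 preneutrophils and over 1% of UMIs in 7, with a median of 0.0284% and a highest value of 5.03%. Cells at or above 0.1%, a limit chosen after the values were seen, are called azurophil-rich here. They numbered 16 of 70, 1 of 27 and 12 of 118, or 22.9%, 3.70% and 10.2%, and 33 of the 215 cells lay between 0.05% and 0.2%. Just below the limit, from 0.05%, were 20, 1 and 4 cells, and just above it, up to 0.2%, were 4, 1 and 3. The single rich cell of HC replicate 2 gives no class average, so the levels below are for HC replicate 1 and CSD replicate 1.

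Azurophil-rich cells had little lactoferrin. *Ltf* was at 1476 CPM in rich and 5938 CPM in poor preneutrophils of HC replicate 1, and at 1808 and 8599 CPM in CSD replicate 1. *Lcn2* was at 4517 against 11906 CPM and at 6524 against 15962 CPM. *Ly6g* was at 80.0 against 346 CPM and at 198 against 543 CPM, and *Ifitm6*, an interferon-induced transmembrane protein gene of myeloid cells, at 300.1 against 1442 CPM and at 843 against 2518 CPM. These 4 genes, named after their values were seen, were lower in the azurophil-rich cells of both libraries. *Retnlg* was lower in those of HC replicate 1 (1796 against 3082 CPM) and about equal in CSD replicate 1 (4409 against 4563 CPM).

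Other genes were higher in the azurophil-rich cells. *Ms4a3* was at 825 against 192 CPM in HC replicate 1 and at 901 against 149 CPM in CSD replicate 1. *Nkg7*, a membrane protein gene of cytotoxic granules, was at 550.3 against 106 CPM and at 645 against 90.5 CPM, and *Srgn*, encoding the granule proteoglycan serglycin, at 545 against 137 CPM and at 658 against 146 CPM. All 79 ribosomal protein genes were higher in rich cells in both libraries, with a median ratio of 1.87 against 1.17 for all 971 genes compared, of which 563 were higher in both. Summed S phase genes were at 3217 against 1706 CPM and 2811 against 1525 CPM, whereas summed G2 and M phase genes were at 4832 against 6064 CPM and 6236 against 6734 CPM. *Cebpe* differed little, at 970.5 against 924 CPM and 901 against 1035 CPM. Rich cells were also deeper, with median UMIs of 12240 against 9132 and of 12786 against 8653, and the part of depth in these differences was not tested.

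**Figure D2:**
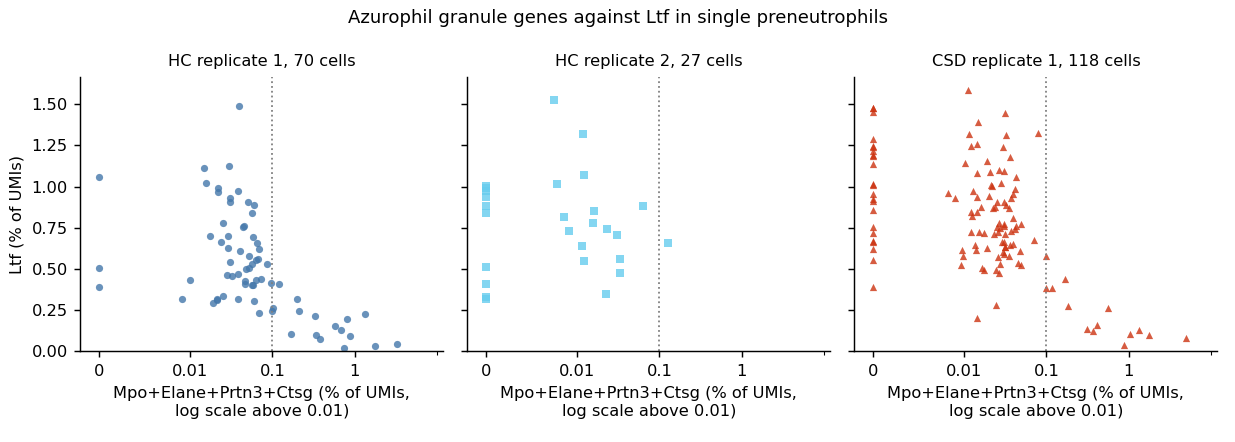
Each symbol is 1 preneutrophil; the horizontal axis is the share of UMIs from Mpo, Elane, Prtn3 and Ctsg (log scale above 0.01%), the vertical axis the share from Ltf, and the dotted line the 0.1% limit. The cells right of the line lie low in HC replicate 1 and CSD replicate 1, and HC replicate 2 has 1 cell there.

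Across single cells the share of azurophil UMIs was lower where that of *Ltf* was higher, least so in HC replicate 2. Spearman's rho was -0.60 over 70 cells of HC replicate 1, -0.13 over 27 cells of HC replicate 2 and -0.46 over 118 cells of CSD replicate 1. Cells of a library share their pool, and both shares are parts of the same total, and the azurophil share was also higher in deeper cells (rho with UMIs per cell 0.50, 0.38 and 0.38). In azurophil-poor preneutrophils *Elane* was at 209, 44.2 and 86.5 CPM, below empty droplets, and in immature neutrophils at 171, 42.9 and 65.3 CPM. Since the split used *Elane* itself, its low level in azurophil-poor cells follows from the split.

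A large share of preneutrophils carried transcripts of dividing cells. To set classes of different depth side by side, each cell was thinned to 2000 UMIs and shallower cells were left out. A UMI of *Mki67* or *Top2a* was then found in 29 of 70 preneutrophils of HC replicate 1 (41.4%, exact Clopper-Pearson 95% interval 29.8 to 53.8%), in 12 of 26 of HC replicate 2 (46.2%, 26.6 to 66.6%) and in 51 of 118 of CSD replicate 1 (43.2%, 34.1 to 52.7%). These intervals, like all others here, cover counting error only. The libraries differed by less than their intervals. Without thinning the shares were 70.0%, 63.0% and 69.5%.

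At the same depth, the share was 10.4%, 11.2% and 12.7% in immature neutrophils. Mature neutrophils, which do not divide, were taken as the background, and there it was 4.00%, 12.3% and 12.6%. The source of these UMIs was not tested. Immature neutrophils thus lay at or near that background in HC replicate 2 and CSD replicate 1, while preneutrophils were well above it in all 3 libraries. Azurophil progenitors, thinned alike, held such a UMI in 7 of 16 cells (43.8%), 0 of 1 and 2 of 6 (33.3%). A high share was therefore not particular to preneutrophils. *Cebpe* was detected in 78.6%, 84.6% and 83.1% of thinned preneutrophils, and *Mmp8* in 31.4%, 30.8% and 44.1% of them, against 77.9%, 88.3% and 85.1% of immature neutrophils. Cells outside the neutrophil lineage, which should lack *Mmp8*, held a UMI of it in 18.4%, 25.04% and 31.3%.

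**Figure D3:**
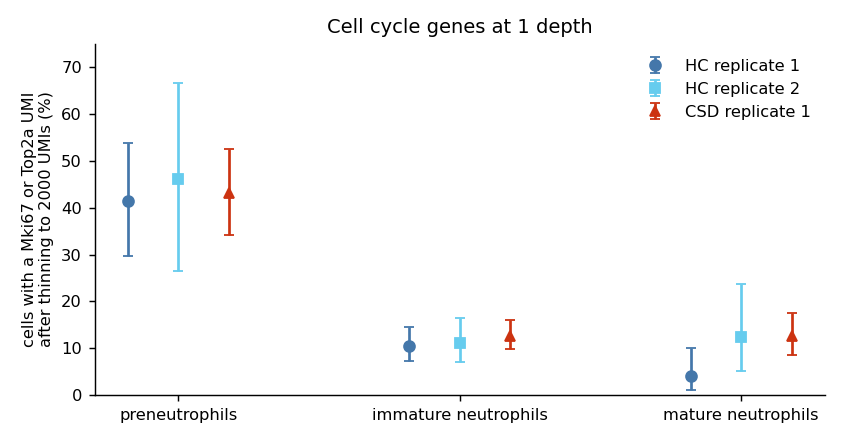
Share of cells with a Mki67 or Top2a UMI after thinning to 2000 UMIs (vertical axis, %) in 3 classes, 1 symbol per library with exact 95% intervals. Preneutrophils lie at 41.4 to 46.2%, and immature and mature neutrophils at 4.00 to 12.7%.

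Preneutrophils were a larger share of the CSD library than of either HC library. They were 2.69% of all cells in HC replicate 1 (95% interval 2.11 to 3.39%), 1.59% in HC replicate 2 (1.05 to 2.30%) and 4.28% in CSD replicate 1 (3.56 to 5.11%). The CSD interval did not overlap those of the HC libraries. The difference of CSD from the HC mean was 2.14 percentage points and the HC libraries had an SD of 0.783 points (n = 2). Among cells of at least 2000 UMIs the difference was 3.71 points. Neither difference was tested, and the CSD library has no replicate.

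Among neutrophils alone the CSD library did not stand apart. Preneutrophils were 8.13% (6.39 to 10.2%), 4.22% (2.80 to 6.08%) and 8.31% (6.93 to 9.87%) of preneutrophils, immature and mature neutrophils together, the azurophil progenitors not counted, so CSD was close to HC replicate 1 and HC replicate 2 was low. Among cells with *Camp* and *Ngp* at 2% or more and at least 5000 UMIs, a comparison at high depth, they were 43.7% (35.4 to 52.2%), 34.3% (23.2 to 46.9%) and 49.3% (42.6 to 56.1%), with overlapping intervals. Immature neutrophils were 12.7%, 17.7% and 19.6% of all cells. Shares of all cells sum to 100%, so a lower share of other cell types raises the share of preneutrophils.

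**Figure D4:**
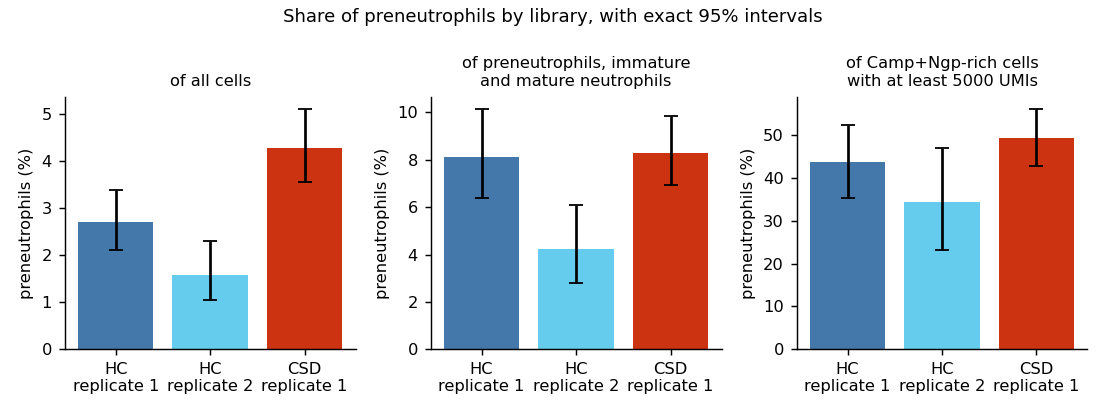
Preneutrophils as a share (%, vertical axes from 0) of all cells, of preneutrophils, immature and mature neutrophils together, and of Camp- and Ngp-rich cells with at least 5000 UMIs, as bars per library with exact 95% intervals. CSD replicate 1 is highest of all cells at 4.28%, but at 8.31% of these 3 neutrophil classes it is level with HC replicate 1 at 8.13%.

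Gene expression in preneutrophils was compared between CSD and HC on UMIs summed per library. No gene passed the test. Of 3652 genes seen in more than 15% of preneutrophils, 0 (0.0%) had an adjusted p under 0.05 (edgeR quasi-likelihood test, p-values adjusted by Benjamini-Hochberg). An unadjusted p under 0.05 was found for 138 (3.78%), of which 38 were higher in CSD (1.04% of genes tested) and 100 lower (2.74%), and DESeq2 called 1 gene, *Mgp*. CSD lay above both HC libraries for 1031 genes (28.2%) and below both for 1084 (29.7%). The test rests on 1 residual degree of freedom, with the lone CSD library assumed to vary like the HC libraries. Alternative limits and filters called between 0 and 29 genes, most of them lower in CSD.

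Of the 10 genes with the smallest p, 9 were lower and 1 was higher in CSD. *Mgp*, matrix Gla protein of fibroblasts and vessel walls, was at 313, 355 and 42.2 CPM after TMM scaling, a log2 fold change of -2.97 ± 0.33 (SE; adjusted p = 0.0909, edgeR). In empty droplets it was at 1686, 1353 and 572 CPM, again lowest in CSD. *Sparc* and *Dcn*, matrix protein genes of fibroblasts, differed by -2.23 ± 0.32 (adjusted p = 0.300, edgeR) and -2.12 ± 0.37 (adjusted p = 0.371, edgeR). *H2-Eb1*, a chain of the class II antigen-presenting molecule, was at 432, 381 and 134 CPM (log2 fold change -1.61 ± 0.30; adjusted p = 0.404, edgeR), and at 1745, 1659 and 781 CPM in empty droplets. *Trem2* and *Cx3cr1*, receptors of macrophages, differed by -1.60 ± 0.33 (adjusted p = 0.672, edgeR) and -1.68 ± 0.37 (adjusted p = 0.802, edgeR). *Tsc22d1*, *Lgmn* and *Atf3*, which encode a transcriptional regulator, a lysosomal protease and a stress-induced transcription factor, were also lower in the CSD library. Of these 9 genes all but *Cx3cr1* were lowest in CSD in empty droplets as well, and the part of free RNA in the differences was not tested.

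*Ifitm1* was the only one of the 10 genes with the smallest p that was higher in CSD. It encodes an interferon-induced membrane protein that restricts virus entry. It was at 33.3, 43.2 and 126 CPM, a log2 fold change of 1.79 ± 0.29 (adjusted p = 0.371, edgeR). The CSD library lay above both HC libraries, as it did in empty droplets at 75.8, 79.4 and 349 CPM.

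**Figure D5:**
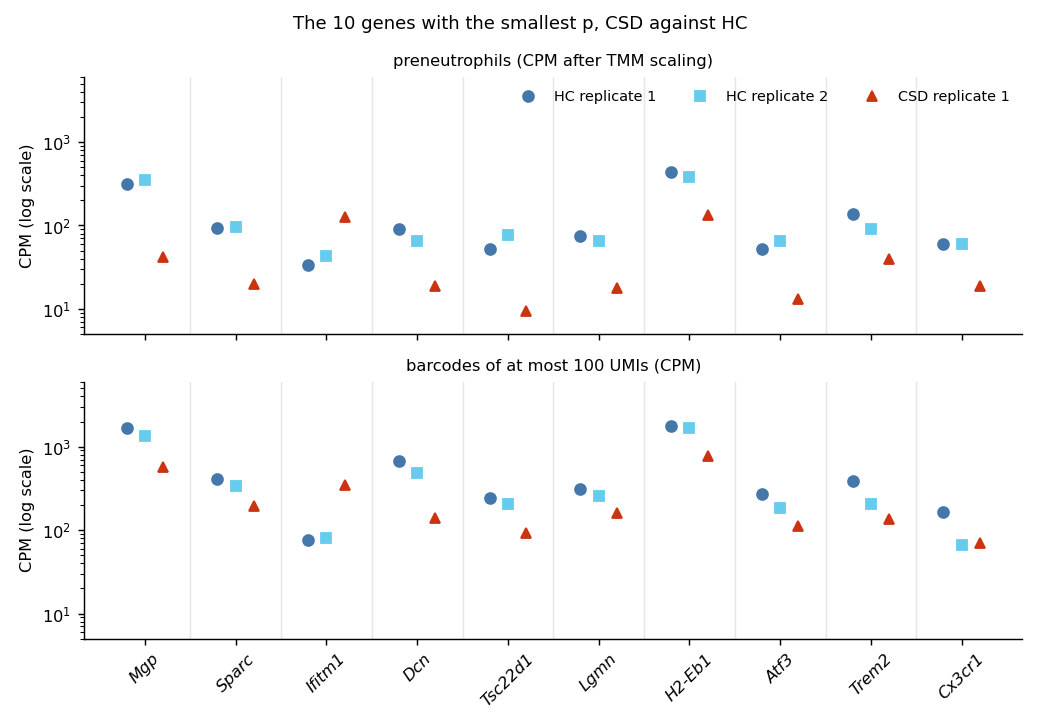
CPM on log axes (vertical) of the 10 genes with the smallest p for CSD against HC (horizontal), in preneutrophils (upper panel) and in barcodes of at most 100 UMIs (lower panel), 1 symbol per library. Ifitm1 is higher in CSD in both panels, 8 genes are lowest in CSD in both, and Cx3cr1 is lowest in CSD in preneutrophils only.

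The gene lists are given by counts, to be read beside the background of 28.2% above and 29.7% below both HC libraries. No gene of any list passed the adjusted threshold in edgeR. Of 11 specific granule genes 7 lay above both HC libraries and 0 below. Their median log2 difference was 0.30, against -0.02 over all genes tested. This list includes *Camp* and *Ngp*, which the rule used to choose the cells, and *Ngp* was among the 7. Of 4 gelatinase granule genes 2 lay above. *Mmp8* was at 189, 251 and 345 CPM after scaling, a log2 fold change of 0.68, and in empty droplets at 411, 537 and 708 CPM, in the same order of libraries. Summed specific granule genes in empty droplets were at 27460.2, 38208 and 49102 CPM, again highest in CSD. Of 8 azurophil granule genes 0 lay above and 1 below, with a median of -0.02.

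The cell cycle genes were counted by phase, and the difference between the phases was not tested. Of 29 S phase genes 3 lay above both HC libraries and 7 below (median -0.26), and of 34 G2 and M phase genes 16 lay above and 6 below (median 0.15). *Ndc80* of the kinetochore and *Cdca3*, a mitotic entry factor, had unadjusted p-values under 0.05. Of 81 ribosomal protein genes 3 lay above and 13 below, with a median of -0.13, and of 69 oxidative phosphorylation genes 22 lay above and 14 below (median 0.05).

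The lists of motility, effector function and maturation had medians between -0.32 and 0.20. Of 26 actin cytoskeleton genes 14 lay above both HC libraries and 3 below (median 0.16). The NADPH oxidase, which makes superoxide in the phagosome, had 3 of 6 genes above and 0 below (median 0.15). Among 12 genes of glycolysis 6 lay above and 2 below (median 0.10), and among 16 receptors and adhesion molecules 7 lay above and 2 below (median 0.20). Myeloid transcription factors had 4 of 9 above and 1 below (median 0.20), *Cebpe* among those above. Mature neutrophil genes had 3 of 9 above and 4 below (median -0.08), and of 8 immediate early genes, which respond within minutes of a stimulus, 2 lay above and 5 below (median -0.32).

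Few genes that respond to glucocorticoids or interferon were seen in enough preneutrophils to be tested. Of 6 glucocorticoid-responsive genes 4 lay above both HC libraries and 1 below (median 0.45). *Il1r2*, the decoy receptor for interleukin 1, was at 37.8, 56.2 and 105 CPM (log2 fold change 1.27 ± 0.31; unadjusted p = 0.00373, adjusted p = 0.973, edgeR), and *Fkbp5*, a co-chaperone of the glucocorticoid receptor, at 13.6, 17.3 and 32.8 CPM (1.16 ± 0.44; unadjusted p = 0.0314, edgeR). Both were also higher in the empty droplets of CSD, *Il1r2* at 48.8, 49.8 and 118 CPM and *Fkbp5* at 25.7, 26.3 and 69.7 CPM. Of 10 interferon-stimulated genes 6 lay above, *Ifitm1* among them, and 2 below (median 0.35). Summed over the 25 genes of the list, empty droplets were at 5160, 4895 and 6245 CPM, also highest in CSD.

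The largest medians were those of MHC class II and of markers of other cell types. All 6 MHC class II genes lay below both HC libraries (median -1.19), each with an unadjusted p under 0.05, as did 5 of 6 macrophage genes (median -1.33) and both fibroblast genes tested (median -2.54). All 4 erythroid genes lay above (median 1.01). The summed MHC class II level was 2838, 2344 and 1105 CPM in preneutrophils and 12271, 12037 and 5635 CPM in empty droplets. Summed macrophage genes were at 3730, 1690 and 1052 CPM against 12132, 4873 and 5167 CPM, and summed erythroid genes at 1815, 3358 and 5000 CPM against 5305, 14567 and 28845 CPM. Summed fibroblast genes were at 401, 427 and 57.4 CPM against 2541, 1934 and 754 CPM. The most abundant gene was *Apoe* among the 7 macrophage genes, *Mgp* among the 6 fibroblast genes and *Hbb-bs* among the 7 erythroid genes, and no gene of these lists was at 0 over all preneutrophils. Each of these lists was higher in empty droplets than in preneutrophils in every library. B lymphoid genes (6 measured) were at 200.3, 427 and 162 CPM, T and NK cell genes (6 measured) at 90.01, 106 and 38.2 CPM, basophil and mast cell genes (4) at 200.3, 199 and 282 CPM and endothelial genes (4) at 8.71, 16.9 and 10.4 CPM, all below their empty droplets too. Their part in the differences was not tested.

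The CSD difference was also set against that in immature neutrophils of the same libraries. Of 3660 genes tested for the interaction, 0 (0.0%) passed an adjusted p of 0.05 by edgeR's quasi-likelihood test, 98 (2.68%) had an unadjusted p under 0.05, and DESeq2 called 0. The smallest p was that of *Gm5483*, at 14.3, 24.7 and 50.8 CPM in preneutrophils and 108, 54.2 and 68.1 CPM in immature neutrophils (log2 difference of the CSD effects 1.98 ± 0.47; adjusted p = 0.529, edgeR). *Elane* was among the 10 smallest, with a log2 difference of 1.01 ± 0.35 (unadjusted p = 0.00673, edgeR), and its HC libraries differed from each other by more. In immature neutrophils alone *Mgp* was the 1 gene of 1640 called, with a log2 fold change of -3.29 (adjusted p = 0.0226, edgeR), close to its -2.97 in preneutrophils.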

How the data were processed

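Meningeal cells of 3 libraries were measured by droplet sequencing (10x 3′ chemistry), which the authors aligned and counted. Per the submitters' processing notes this used Cell Ranger 2 and mm10. The deposited values are raw UMI counts per gene and barcode, with no cells called and no normalization. Libraries were told apart by the number that ends each barcode, taken to be that of the sample labels. More than 1 gene shares each of 56 symbols.

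Cells were barcodes with at least 500 UMIs, 174 to 4548 genes and under 8.3% mitochondrial UMIs. Immature neutrophils had *Camp* and *Ngp* at 2% or more without meeting the *Fcnb* limits. Mature neutrophils had *S100a8* and *S100a9* at 5% or more and *Camp* and *Ngp* under 2%. Azurophil progenitors had *Mpo*, *Elane*, *Prtn3* and *Ctsg* at 1% or more and *Camp* and *Ngp* under 2%. Empty droplets were barcodes of at most 100 UMIs. Doublets were scored with Scrublet and kept. The libraries held 9891861, 8814690 and 10206236 UMIs (HC replicate 1, HC replicate 2, CSD replicate 1).

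UMIs were summed per library and tested with edgeR 4.0.16 (glmQLFit, glmQLFTest, TMM, two-sided, Benjamini-Hochberg adjustment, threshold 0.05) on genes seen in more than 15% of cells. DESeq2 1.42.0 was an alternative, as were other scalings, filters, *Fcnb* and *Camp* limits, thinning and removal of doublets. The interaction was fitted on 6 sums with library as a block. The tests were tested on simulated data. Python 3.11.15, scanpy 1.11.5, scipy 1.17.1 and R 4.3.3 were used. A rule chose the genes that could be named, and the text prints part of them: the markers, the 10 smallest p where under 10 genes passed, the 15 highest and 15 lowest ratios to immature neutrophils, the 3 most abundant genes of each list and every gene past the threshold. Genes of the azurophil split, *Il1r2*, *Fkbp5* and other single genes outside it were named after their values were seen. The members and lists were chosen with earlier results of these data known. The pools are the replicates, and 1 CSD pool gives no spread of its own.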

Additional observations from a re-analysis of the deposited data

Results flagged for a closer look

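Free RNA held more of the genes that mark preneutrophils in the CSD library than in either HC library. In barcodes of at most 100 UMIs, which are not counted as cells, *Fcnb* was at 139.4 CPM in CSD replicate 1, against 83.51 and 86.93 CPM in HC replicates 1 and 2. *Camp* was at 16280 CPM against 9970 and 12410 CPM, and *Ngp* at 16010 CPM against 8770 and 12890 CPM. *Chil3* was at 3066 CPM against 1569 and 2191 CPM. *Cebpe* was at 270.0 CPM against 142.6 and 185.6 CPM, and *Mki67* at 71.51 CPM against 37.26 and 32.42 CPM. With 1 CSD library these differences were not tested.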

How the results depend on the processing

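The count of genes changed between CSD and HC was 0 and stayed 0 with genes changed in empty droplets left out, without cells holding a *Mki67* or *Top2a* UMI, and with a mitochondrial share under 5%. It became 5 with *Camp* and *Ngp* at 4% or more and 5 with DESeq2's size factors in edgeR, 1 with DESeq2, 1 with at least 2 *Fcnb* UMIs, 15 with at least 5, 29 with no filter on the share of cells, 2 after thinning to 2000 UMIs and 4 with the top 5% of doublet scores removed. Among azurophil-poor cells alone, an alternative chosen after seeing the data, it was 27. Of the 47 genes called in at least 1 of these, 38 were lower and 9 higher in CSD. In empty droplets 28 of the 38 were also lower and all 9 also higher than in both HC libraries. *Mgp* was called in 9 alternatives, *Sparc* and *Ifitm1* in 6 each. The cause of the other changes in count was not tested. The interaction count of 0 became 1 with *Camp* and *Ngp* at 4% (*Gm5483*) and 1 with no filter (*Tff2*), and stayed 0 under the other alternatives run. The CSD difference in the share of preneutrophils, 2.14 points, was 3.71 among cells of at least 2000 UMIs and 1.59 to 2.70 with either HC library left out. The difference in the share with a cell cycle UMI, -0.571 points, was 3.84 with at least 5 *Fcnb* UMIs, 6.83 after thinning to 1000 UMIs, -1.71 after thinning to 5000 UMIs, -3.87 with the top 5% of doublet scores removed, and -2.93 to 1.79 with either HC library left out. Summed *Mki67* and *Top2a* were at 352 CPM, and at 310 CPM as a mean over cells. Leaving out an HC library leaves 1 against 1, which gives a fold change but no test. None of the 10 genes with the smallest p changed sign in the alternatives in which it was tested. Of the 10, 8 were tested without cells holding a *Mki67* or *Top2a* UMI, 5 with genes changed in empty droplets left out and 2 after thinning. Some log2 fold changes moved in size. Without cells holding a *Mki67* or *Top2a* UMI, *Atf3* went from -2.10 to -0.702 and *H2-Eb1* from -1.61 to -2.30. With at least 5 *Fcnb* UMIs, *Ifitm1* went from 1.79 to 2.51. The fold changes of other named genes were not followed. No paired analysis was possible because the libraries are separate pools, and replicate numbers do not pair HC with CSD. Depth limits HC replicate 2 most, with 27 preneutrophils.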

Other observations

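A few ribosomal protein genes were high in HC replicate 1. Of 79 ribosomal protein genes at 100 CPM or more in preneutrophils, the median ratio of HC replicate 1 was 1.38 to HC replicate 2 and 1.29 to CSD replicate 1. For 6 of them (*Rpl37a*, *Rpl39*, *Rps27*, *Rpl38*, *Rps29* and *Rps28*) HC replicate 1 was over 2-fold above both others. *Rps29* was at 3663, 1377 and 1614 CPM in preneutrophils (HC replicate 1, HC replicate 2, CSD replicate 1), at 2595, 1197 and 1093 CPM in immature neutrophils and at 7517, 3434 and 4071 CPM in cells outside the neutrophil lineage.

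*Actb*, which encodes cytoskeletal actin, was high in HC replicate 2. It was at 4228, 8258 and 3434 CPM in preneutrophils, at 4810.1, 10187 and 4673 CPM in immature neutrophils and at 8482, 26047 and 11780 CPM in empty droplets.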
